A study of Mus musculus with 18 samples.

Results

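Doxorubicin (DOX) is an anthracycline used in chemotherapy. It traps topoisomerase II on DNA and leaves double-strand breaks behind. The comparison described here is its effect on the mouse uterus in the absence of estradiol. It holds the 12 of 18 libraries of the series whose labels name OIL or P4, chosen by those labels alone, and the libraries labelled E2 were kept out of the fit. Of these, 6 carry the label DOX (3 DOX OIL and 3 DOX P4) and 6 carry the label PBS, the vehicle (3 PBS OIL and 3 PBS P4). The E2 libraries, 3 DOX E2 and 3 PBS E2, enter only where the effect with estradiol is set beside it. OIL is the hormone-free arm, P4 is progesterone and E2 is estradiol. All animals were adult CD-1 mice, an outbred stock, and all were ovariectomized, so the ovary supplied no hormone in any group. RNA came from homogenate of the whole uterus, which mixes muscle, stroma, epithelium, vessels, immune cells and any attached fat. In such bulk samples, fewer cells of a type and less RNA per cell cannot be told apart. The labels state no dose, no timing and no age in weeks. No label states that replicates were separate animals, so p-values measure only the spread between these samples, which may be technical.

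DNA breaks stabilise p53, a transcription factor that induces the cell cycle inhibitor p21 (Cdkn1a), its own antagonist Mdm2, and genes of repair and cell death. Nucleic acid in the cytosol, sensed by proteins such as cGAS, MDA5 (Ifih1) and ZBP1, leads to interferon, and interferon switches on a broad antiviral set through transcription factors that include IRF9 and IRF7. IRF factors bind the interferon-stimulated response element, whose core is a pair of GAAA repeats. The uterus answers progesterone through PGR (Pgr) and estradiol through ERα (Esr1).

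Promoter windows of interferon genes described below are shown to make the element visible. Members with and without it were not compared. Each window is from RefSeq on build GRCm38.p6, is written 5′ to 3′ on the strand of its gene, and ends before the RefSeq start site. Capitals mark GAAANNGAAA, or its reverse complement TTTCNNTTTC, with overlapping matches joined. The window of Ifit3 holds 1 of its 2 matches.
Cxcl10, chr5:92349063-92349132, minus strand: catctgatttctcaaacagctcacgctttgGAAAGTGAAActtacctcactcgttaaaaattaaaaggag
Ifit1, chr19:34640774-34640843, plus strand: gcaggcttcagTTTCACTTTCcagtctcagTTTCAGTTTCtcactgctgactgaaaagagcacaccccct
Ifit3, chr19:34583377-34583446, plus strand: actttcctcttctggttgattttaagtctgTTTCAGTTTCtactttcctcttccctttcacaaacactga
Isg15, chr4:156200845-156200914, minus strand: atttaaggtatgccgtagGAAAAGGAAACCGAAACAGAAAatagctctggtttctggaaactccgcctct
Gbp2, chr3:142620574-142620643, plus strand: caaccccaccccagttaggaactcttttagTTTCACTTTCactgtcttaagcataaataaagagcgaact
Gbp7, chr3:142530253-142530322, plus strand: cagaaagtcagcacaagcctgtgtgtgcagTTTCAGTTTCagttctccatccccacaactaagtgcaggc

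Searched on both strands over the whole RefSeq promoter window, the motif was present in 13 of the 22 antiviral effectors with a promoter entry (59.1%). It was present in 10 of 17 interferon gamma-induced genes (58.8%) and in 3 of 14 interferon sensors and transcription factors (21.4%). Among 11748 tested genes with an entry 3.8% held it, and among all 32851 promoters 3.44% did. Of the p53 targets, 1 of 14 in the arrest list and 0 of 15 in the death and repair list held it. A match describes these letters only and is not a binding site.

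Without estradiol few genes separated DOX from PBS uteri. Over OIL and P4 together, 0 of 15268 genes passed the test across all genes (0% called; edgeR quasi-likelihood test with hormone as a block, Benjamini-Hochberg adjusted p under 0.05), and the smallest adjusted p was 0.156. An unadjusted p under 0.05 was reached by 1693 genes (11.1%), of which 928 lay higher in DOX (6.08% of all tested) and 765 lower (5.01%). The median gene differed by 0.096 on the log2 scale in either direction, with a median standard error of 0.097. For 13913 genes (91.1%) the 95% interval of the DOX effect lay within a 2-fold change. Only 143 genes (0.937%) had an estimate of at least 2-fold.

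The count of calls depends on the tool. DESeq2 called 47 genes on the same 12 libraries (0.315% of the 14922 it gave an adjusted p), 33 higher (0.221%) and 14 lower (0.0938%), while limma voom called 0. Of the 47, 4 belong to the 2 p53 lists and 9 to the 3 interferon lists described below. Where a gene below is named as a DESeq2 call and is not in one of the lists, it was chosen after its values were seen.

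**Figure D1:**
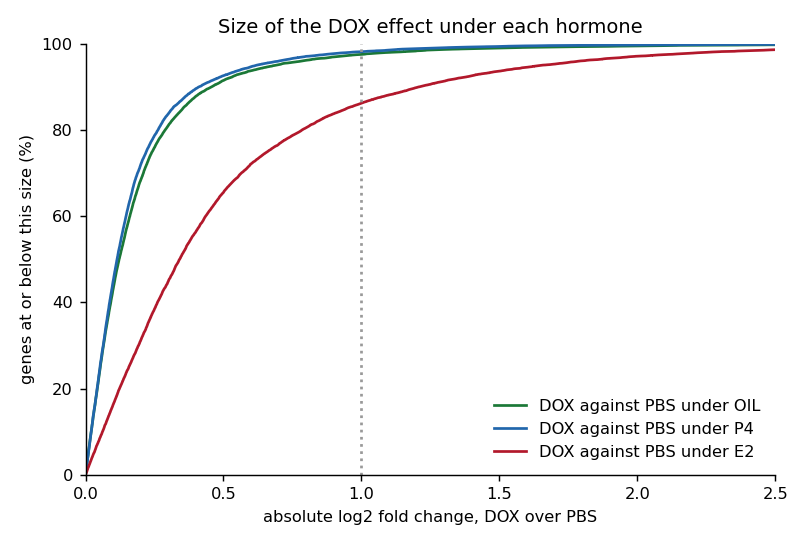
Cumulative share of tested genes (y axis, %) by the absolute log2 fold change of DOX over PBS (x axis) under OIL, P4 and E2, with a dotted line at a 2-fold change. The OIL and P4 curves lie close together and far to the left of the E2 curve: 2.42% of genes reached a 2-fold estimate under OIL, 1.79% under P4 and 14.4% under E2.

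The p53 targets that lay higher in DOX came from both lists. At an unadjusted p under 0.05 they were 6 of 16 genes of arrest and feedback (list median 0.07) and 7 of 22 of death and repair (0.15). In the 2 lists together, 13 of 38 tested members had an unadjusted p under 0.05 and were higher in DOX and 0 were lower, beside 6.08% and 5.01% of all genes; 0 members passed over all genes. Of the 38, 29 had a log2 fold change above 0 and 9 below, beside 47.6% of all tested genes above 0. Their median was 0.10, against -0.01 over all tested genes, so most members leaned higher but the typical difference was small.

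Cdkn1a (chr17:29090976-29100727, plus strand), the cell cycle inhibitor p21, had 50.4, 66.5 and 26.8 CPM (counts scaled to the size of each library) in DOX OIL, against 20.6, 31.6 and 17.5 CPM in PBS OIL. Under P4 it had 57.9, 28.2 and 62.3 CPM in DOX, against 18.8, 20.1 and 15.9 CPM in PBS. All 3 DOX P4 libraries lay above all PBS P4 libraries, while DOX OIL replicate 3 lay inside the range of PBS OIL. The pooled difference was 1.24 ± 0.25 (log2, SE), with an adjusted p of 0.395 in edgeR and 0.00075 in DESeq2.

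Zmat3 (chr3:32334792-32366014, minus strand), an RNA-binding protein induced by p53, had 34.5, 50.6 and 42.1 CPM in DOX OIL, against 19.3, 28.4 and 20.4 CPM in PBS OIL. In P4 uteri it had 59.6, 51.0 and 67.8 CPM in DOX, against 35.4, 37.8 and 45.9 CPM in PBS. The groups did not overlap under either hormone, and the difference was 0.74 ± 0.13 (adjusted p = 0.308 in edgeR, 0.000421 in DESeq2).

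Ccng1 (chr11:40748552-40755311, minus strand) encodes cyclin G1, a p53 target of the feedback on MDM2. It had 108, 141 and 101 CPM in DOX OIL, against 70.7, 86.3 and 85.0 CPM in PBS OIL, and 158, 140 and 196 CPM in DOX P4, against 112, 113 and 118 CPM in PBS P4. Trp53inp1, a stress-induced cofactor of p53, had 97.3, 127 and 112 CPM in DOX OIL, against 63.2, 95.8 and 80.1 CPM in PBS OIL. Under P4 it had 101, 88.1 and 113 CPM in DOX, against 60.0, 73.1 and 49.8 CPM in PBS. Neither gene overlapped within OIL or within P4, and the differences were 0.53 ± 0.10 and 0.61 ± 0.12. DESeq2 called both, with adjusted p-values of 0.00136 and 0.00417.

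Other members had smaller or less certain differences. Phlda3, which restrains AKT, was at 0.49 ± 0.15, Eda2r, a death receptor of the TNF family, at 0.49 ± 0.17, and Ephx1, an epoxide hydrolase, at 0.28 ± 0.09. Psrc1, a microtubule regulator, was at 0.89 ± 0.27. Mdm2 was at 0.09 ± 0.08, with 79.5, 79.7 and 62.3 CPM in DOX OIL against 71.9, 73.7 and 67.4 CPM in PBS OIL, and 68.2, 54.8 and 67.5 CPM in DOX P4 against 58.4, 54.6 and 61.0 CPM in PBS P4. Its DOX and PBS ranges overlapped under both hormones. Bax, a pore-forming protein of cell death, was at 0.07 ± 0.10, and its relative Bbc3 (PUMA) at 0.25 ± 0.12.

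Of the lists with at least 10 tested members, the 2 with the highest share higher in DOX at an unadjusted p under 0.05 held interferon-stimulated genes. Of 30 antiviral effectors, 29 had a log2 fold change above 0, beside 47.6% of all tested genes. In this list 25 of 30 were higher at an unadjusted p under 0.05, 0 were lower and 0 passed over all genes, with a median of 0.63. The only member below 0 was H28, an older symbol of Ifi44l, at -1.12 ± 1.21, with 61 raw counts in DOX P4 replicate 3, 106 in PBS OIL replicate 3, 33 in PBS P4 replicate 2 and at most 5 in each other library. Of 20 genes induced by interferon gamma, 13 were higher, 0 lower and 0 called (median 0.51); without DOX P4 replicate 1 the 13 became 8. Of 17 sensors and transcription factors, 7 were higher, 0 lower and 0 called (median 0.11).

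Cxcl10 (chr5:92346638-92348889, minus strand), a chemokine that draws T and NK cells, had 4.59, 8.55 and 2.43 CPM in DOX OIL, against 1.22, 1.07 and 0.737 CPM in PBS OIL. In P4 uteri it had 8.40, 2.98 and 4.06 CPM in DOX, against 1.94, 1.58 and 1.63 CPM in PBS. All 6 DOX libraries lay above all 6 PBS libraries, which 25 of all tested genes did (0.164%). Its difference of 1.95 ± 0.35 had an adjusted p of 0.308 in edgeR and 0.000126 in DESeq2.

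Among the antiviral effectors, the pair with the smallest p encode a nucleic acid sensor and an RNA-binding block on translation. Zbp1 (chr2:173206612-173218923, minus strand) senses Z-form nucleic acid. It had 7.69, 14.1 and 4.04 CPM in DOX OIL, against 3.66, 3.95 and 3.44 CPM in PBS OIL, and 9.69, 3.22 and 5.89 CPM in DOX P4, against 2.37, 2.49 and 1.83 CPM in PBS P4. The groups did not overlap within either hormone, although DOX OIL replicate 3 exceeded the highest PBS OIL library by little. Ifit1 (chr19:34640871-34650009, plus strand), whose protein binds foreign RNA caps and whose promoter holds a pair of separate matches above, had 14.8, 18.1 and 9.13 CPM in DOX OIL, against 7.47, 6.25 and 8.79 CPM in PBS OIL. Under P4 it had 22.1, 6.91 and 16.7 CPM in DOX, against 6.87, 4.80 and 4.51 CPM in PBS. The differences were 1.35 ± 0.31 for Zbp1 and 1.20 ± 0.27 for Ifit1, both with an adjusted p of 0.395 in edgeR; DESeq2 gave 0.0106 and 0.00947.

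Ifit3, a partner of IFIT1, was at 1.41 ± 0.34 and Oasl2, of the oligoadenylate synthetase family, at 0.64 ± 0.16. Mx1, a GTPase that blocks influenza virus, was at 1.51 ± 0.38 and Isg15, a ubiquitin-like modifier, at 1.07 ± 0.28. Ifit3 shares sequence with I830012O16Rik (Ifit3b), and Oas1a with Oas1g, so counts split between such copies are uncertain.

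Of the transcription factors, Irf7, which amplifies the interferon response, had 27.0, 45.7 and 20.5 CPM in DOX OIL, against 14.3, 17.5 and 15.1 CPM in PBS OIL. In P4 uteri it had 36.9, 13.9 and 24.7 CPM in DOX, against 13.9, 12.2 and 14.4 CPM in PBS, where DOX P4 replicate 2 lay inside the PBS range. Its difference was 0.95 ± 0.23. Irf9 was at 0.42 ± 0.11 and Stat2 at 0.42 ± 0.13, both higher at an unadjusted p under 0.05. The receptor chain Ifnar1 was at 0.01 ± 0.08 and Irf1 at 0.05 ± 0.08.

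The interferon gamma-induced GTPases Gbp2 and Gbp7, which attack vacuoles of intracellular microbes, were at 0.66 ± 0.16 and 0.50 ± 0.13. Gbp2 had 87.4, 154 and 92.2 CPM in DOX OIL, against 45.9, 66.8 and 75.1 CPM in PBS OIL, and 94.9, 81.4 and 74.7 CPM in DOX P4, against 67.9, 54.2 and 55.6 CPM in PBS P4, without overlap in either hormone. Gbp3 was at 0.80 ± 0.21. The class I molecules H2-K1 and H2-D1, the members below 0, were at -0.05 ± 0.25 and -0.47 ± 0.66. H2-D1 varied widely within a group, with 16847, 2010 and 13221 raw counts in PBS P4. The 2 are close paralogs, and reads shared between them may make their counts uncertain. The cause of the spread was not tested.

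**Figure D2:**
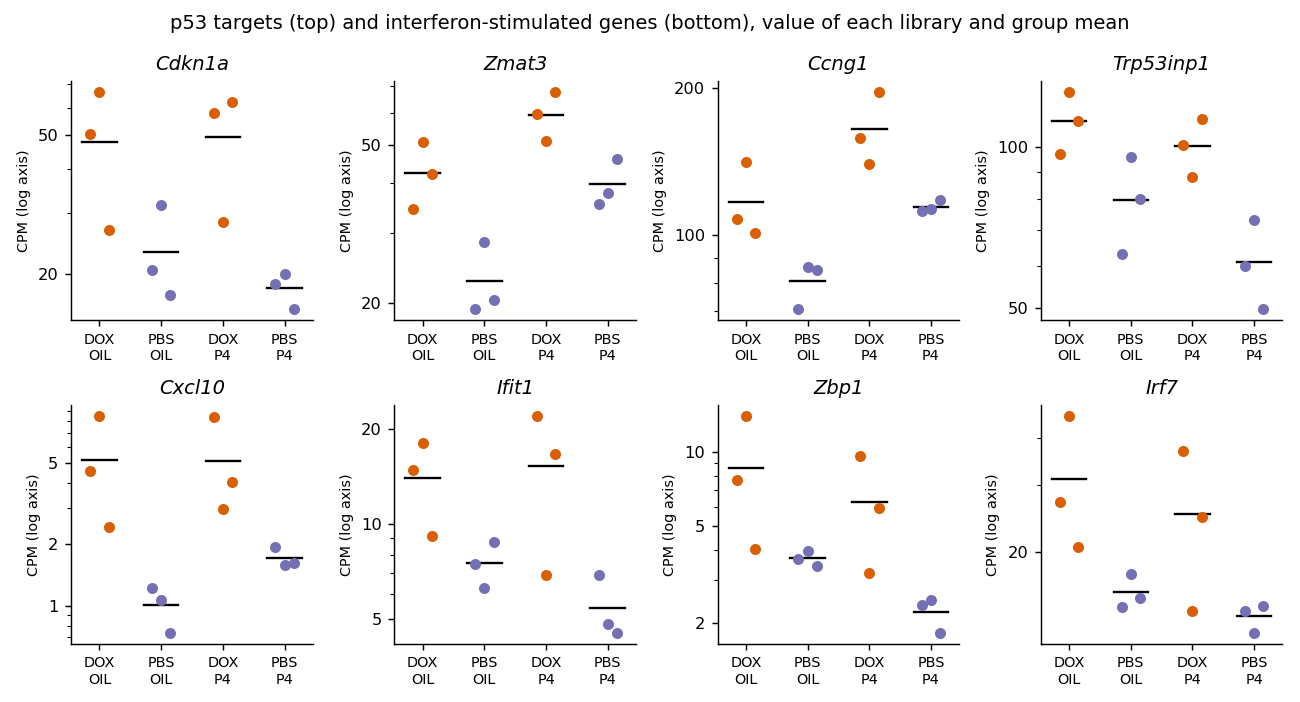
CPM (y axes, log scale) of 4 p53 targets (top) and 4 interferon-stimulated genes (bottom) in each of the 12 libraries, as points left to right by replicate number, with group means as lines. The mean of each DOX group stands above that of the PBS group of the same hormone. Single libraries overlap for Cdkn1a under OIL and Irf7 under P4. DOX OIL replicate 3 and DOX P4 replicate 2 are the lowest of their groups for Cdkn1a, Cxcl10, Zbp1, Ifit1 and Irf7.

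The size of the interferon shift differed between DOX libraries of the same group. Within DOX OIL, replicate 2 was the highest of 3 for 27 of the 30 antiviral effectors and replicate 3 the lowest for 26. Within DOX P4, replicate 1 was the highest for 27 and replicate 2 the lowest for 24. Averaged over the list, the level was a log2 CPM of 4.01, 4.45 and 3.70 in DOX OIL, against 3.28, 3.66 and 3.70 in PBS OIL, and 4.35, 3.27 and 4.03 in DOX P4, against 3.20, 3.16 and 3.03 in PBS P4. Thus DOX OIL replicate 3 equalled the highest PBS OIL library on this scale, and DOX P4 replicate 2 lay just above the PBS P4 libraries. The pattern was not limited to interferon genes. Among p53 targets, DOX OIL replicate 3 was the lowest of its group for 12 of 16 in the arrest list and 13 of 22 in the death and repair list. DOX P4 replicate 2 was the lowest for 10 of 16 and 13 of 22. The same libraries, DOX OIL replicate 3 and DOX P4 replicate 2, had the highest mean log2 CPM of 12 smooth muscle markers in their groups, 9.63 and 10.44, beside 8.40 to 9.08 and 9.63 to 9.67 in the other DOX libraries of the same hormone. The part of muscle content in the interferon and p53 values was not tested.

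**Figure D3:**
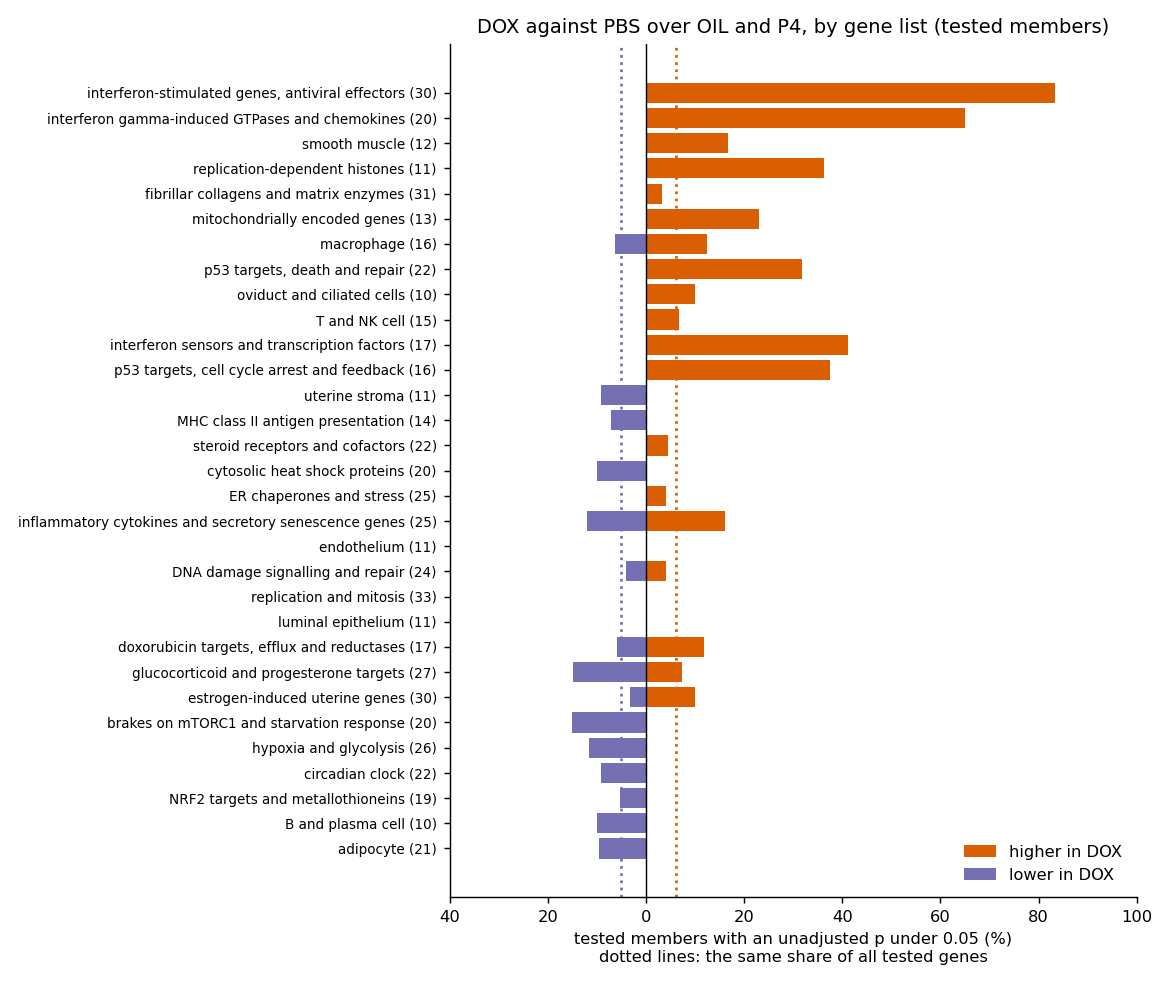
Share of each list's tested members (number in parentheses) with an unadjusted p under 0.05 for DOX against PBS over OIL and P4, higher to the right and lower to the left, in order of the median log2 fold change. Dotted lines give the share of all tested genes, 6.08% higher and 5.01% lower. The 3 interferon and 2 p53 lists reach far past the higher line and have no bar on the lower side, as do replication-dependent histones (4 of 11 higher). Mitochondrially encoded genes (3 of 13) and smooth muscle markers (2 of 12) are among others that pass the line without a lower bar.

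Most other pathways had few members that differed. Their counts stand beside 6.08% of all tested genes higher and 5.01% lower at an unadjusted p under 0.05. Of 33 replication and mitosis genes 0 had an unadjusted p under 0.05, of 24 genes of DNA damage signalling and repair 1 was higher and 1 lower, and of 25 chaperones of the endoplasmic reticulum 1 was higher. Among DOX targets, Top2a was at 0.05 ± 0.18 and Top2b at 0.15 ± 0.08, while the efflux pump Abcg2 was at 0.17 ± 0.07 and the reductase Por, which can reduce DOX, at -0.17 ± 0.06. Esr1 and Pgr were at 0.10 ± 0.07 and 0.06 ± 0.14, and neither reached an unadjusted p under 0.05. Replication-dependent histones, whose transcripts mostly lack poly(A) tails, had 4 of 11 tested members higher; Hist2h4 was at 1.37 ± 0.40. Hypoxia and glycolysis genes were below 0 for 22 of 26 (median -0.09), with 3 lower at an unadjusted p under 0.05, and fibrillar collagens and matrix enzymes above 0 for 24 of 31 (median 0.18), with 1 higher. The arms of the collagen list differed: 27 of 31 were above 0 under P4 (median 0.39) and 10 of 31 under OIL (median -0.06). At an unadjusted p under 0.05, 6 were higher under P4 and 0 under OIL, beside 2.88% and 4.71% of all genes. Of 22 circadian clock genes 2 were lower, of 20 brakes on mTORC1 3 were lower, and of 25 inflammatory and secretory genes 4 were higher and 3 lower. The lower shares of the hypoxia, clock, mTORC1 and inflammatory lists exceeded that of all genes. So did the higher shares of the histone and inflammatory lists. Each rests on few members.

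DESeq2 called 14 genes lower in DOX, which were of several kinds. Tsc22d3 (GILZ), a glucocorticoid-induced anti-inflammatory protein, had 175, 149 and 172 CPM in DOX OIL, against 210, 227 and 215 CPM in PBS OIL, and 181, 177 and 202 CPM in DOX P4, against 247, 220 and 206 CPM in PBS P4. Its 6 DOX libraries lay below its 6 PBS libraries, which 14 of all tested genes did (0.0917%), with a difference of -0.33 ± 0.06. Of the 27 glucocorticoid and progesterone targets in its list, 2 were higher and 4 lower at an unadjusted p under 0.05 (median -0.06). The same shares of all tested genes were 6.08% and 5.01%. Nfkbia, the inhibitor of NF-κB, was at -0.39 ± 0.08. Slc6a6, the taurine transporter, was at -0.24 ± 0.05, and Akt1s1 (PRAS40), a brake on mTORC1, at -0.24 ± 0.06. DESeq2 called these 4 lower, while edgeR gave each an adjusted p of 0.395. Others among the 14 were Cd14 (-0.36), Rps21 (-0.47) and Gprc5b (-0.42). Slc6a6, Akt1s1, Cd14, Rps21 and Gprc5b were chosen after their values were seen.

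Under OIL alone 2 genes were called by edgeR (0.0131% of 15268; 1 higher and 1 lower, 0.00655% each), beside 1274 at an unadjusted p under 0.05 (8.34%); DESeq2 called 30. Ddit4 (chr10:59949669-59951834, minus strand), a stress-induced inhibitor of mTORC1, fell to 20.6, 22.0 and 18.9 CPM in DOX OIL, against 42.8, 59.3 and 51.9 CPM in PBS OIL (-1.32 ± 0.14, adjusted p = 0.0153). In P4 uteri it had 29.3, 24.9 and 24.8 CPM in DOX, against 31.7, 36.2 and 26.5 CPM in PBS, where the groups overlapped and the difference was -0.26 ± 0.14. Tmem45b (chr9:31426196-31464462, minus strand), a transmembrane protein, rose to 13.2, 10.6 and 8.85 CPM in DOX OIL, against 0.751, 0.439 and 0.786 CPM in PBS OIL (4.03 ± 0.49, adjusted p = 0.0286), from raw counts of 303, 221 and 160 against 16, 9 and 16. Under P4 it had 2.34, 6.35 and 3.23 CPM in DOX, against 7.82, 3.57 and 3.12 CPM in PBS, which overlapped. The Ddit4 call ended without PBS OIL replicate 3 and without each DOX OIL replicate (adjusted p 0.0584 to 0.11), and the Tmem45b call in each of the 6 fits without a library of these groups (0.0584 to 0.144).

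Under P4 alone 0 genes were called (0%), with a smallest adjusted p of 0.371 and 926 genes at an unadjusted p under 0.05 (6.06%); DESeq2 called 13. The difference between the effects under P4 and under OIL was itself called for 0 genes (0%), with 584 at an unadjusted p under 0.05 (3.82%) and 11 called by DESeq2. Rfx2, a factor of cilia formation, had 59.4, 62.6 and 66.4 CPM in DOX OIL, against 28.7, 40.1 and 29.2 CPM in PBS OIL, and 43.1, 34.9 and 46.7 CPM in DOX P4, against 60.7, 47.4 and 63.5 CPM in PBS P4. The groups separated in opposite directions, higher in DOX by 0.94 ± 0.15 under OIL and at -0.46 ± 0.15 under P4. In the fit of 12 libraries neither value was called. In the fit of all 18 the effect under OIL (0.95, adjusted p = 0.047) and the difference of P4 and OIL (-1.41, adjusted p = 0.0477) were, and the effect under OIL was also called without PBS OIL replicate 2 (1.12, adjusted p = 0.0424).

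OIL and P4 share no library, so their effects can be set side by side. The sign was the same for 59.5% of all 15268 genes, for 72.4% of the 1274 genes with an unadjusted p under 0.05 under OIL, and for 67.4% of the 926 under P4. Across all genes, which are not independent replicates, Pearson's r was 0.0802 and Spearman's rho 0.2. DOX libraries lay above PBS libraries in both hormones without overlap for 144 genes (0.943%) and below for 82 (0.537%). Members of the interferon lists did so for 5 of 67 above and 0 below, and p53 targets for 4 of 38 and 0. Of the 67 interferon members 56 were above 0 under both hormones, beside 28.3% of all genes, and of the p53 targets 22 of 38. The counts in the interferon lists differed by hormone: at an unadjusted p under 0.05, 12 antiviral effectors were higher under OIL and 21 under P4, while 11 interferon gamma-induced genes were higher under OIL and 3 under P4, beside 4.71% and 2.88% of all genes. That contrast of lists was not tested, and 0 genes had a called difference.

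**Figure D4:**
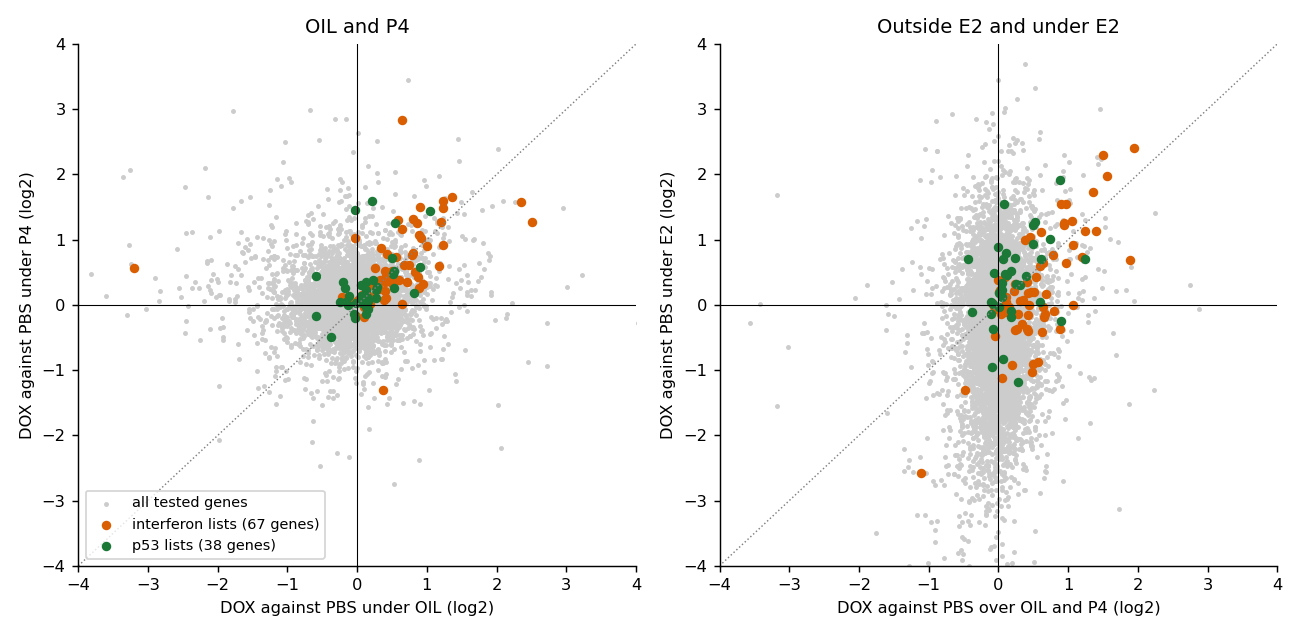
Log2 fold change of DOX over PBS for each gene, under P4 (y) against OIL (x) on the left, and under E2 (y) against OIL and P4 pooled (x) on the right; grey points are all tested genes, coloured points the 67 interferon and 38 p53 list members, and the dotted line marks equal effects. Interferon members lie mostly in the upper right quadrant on the left and spread to both sides of 0 in E2 on the right; 14 and 37 genes beyond 4 log2 units are not drawn.

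With estradiol the effect of DOX was far larger. Under E2, 6358 of 15494 genes were called (41%), 3162 higher and 3196 lower, and the effect under E2 differed from the mean effect under OIL and P4 for 4778 genes (30.8%), 2267 higher (14.6%) and 2511 lower (16.2%). With the adipocyte score as a covariate the E2 count was 3928. Of 21 adipocyte markers 20 fell under E2 (median -4.23), and their summed level was 193.6 to 550.6 CPM in DOX E2, against 677.8 to 8635 CPM in PBS E2. The smallest p-values among the higher differences were those of Chid1 (0.95 ± 0.11), Lman1 (0.78 ± 0.09) and Snd1 (0.95 ± 0.11). Among the lower they were those of Selenbp1 (-2.31 ± 0.15), Peg3 (-2.35 ± 0.19) and Sspn (-2.80 ± 0.23). Outside E2 the pooled log2 fold change was -0.08 for Chid1, 0.12 for Lman1, -0.09 for Snd1, -0.14 for Selenbp1, -0.24 for Peg3 and -0.03 for Sspn. Rfx2 was lower in the difference by the same test, at -2.05 ± 0.18 (adjusted p = 8.72e-06). Of 25 endoplasmic reticulum chaperones and stress genes, which fold secreted proteins, 21 rose under E2 and the difference was called higher for 20, while of 22 circadian clock genes 15 fell under E2 and the difference was called lower for 13.

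The genes that led outside E2 behaved in several ways under E2. Cxcl10 was at 2.40 ± 0.46 under E2 and 1.95 ± 0.35 outside, and their difference of 0.44 ± 0.54 was not called. Zmat3 was at 1.02 ± 0.16 under E2 and Trp53inp1 at 0.71 ± 0.19, both called there, with differences from OIL and P4 of 0.28 ± 0.19 and 0.10 ± 0.22 that were not. Cdkn1a was at 0.70 ± 0.33 under E2 (adjusted p = 0.0992), a difference of -0.54 ± 0.41. For Ccng1 the effect was 1.27 ± 0.13 under E2, larger than outside by 0.74 ± 0.16 (adjusted p = 0.00323), and for Mdm2 it was 0.48 ± 0.10, larger by 0.38 ± 0.12 (0.0296). Of the 38 p53 targets 16 rose and 4 fell under E2, beside 20.4% and 20.6% of all genes. The difference was called higher for 9 and lower for 3, beside 14.6% and 16.2%.

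The interferon lists differed from each other under E2. Of the 67 members 15 rose and 4 fell under E2, beside 20.4% and 20.6% of all genes, and their median was 0.12 there against 0.46 over OIL and P4. Of the 30 antiviral effectors 11 rose and 1 fell under E2. Their median was 0.64 there and 0.63 over OIL and P4. Of the 20 interferon gamma-induced genes 1 rose and 2 fell, with a median of -0.13 against 0.51. Of the 17 sensors and transcription factors 3 rose and 1 fell, with a median of 0.02 against 0.11. Over the 67 members the difference was called higher for 1 and lower for 7, beside 14.6% and 16.2% of all genes, so neither count exceeded the background. The median difference was -0.04 in the antiviral effectors, -0.72 in the interferon gamma-induced genes and -0.06 in the sensors and transcription factors. Gbp7 was at -0.91 ± 0.23 under E2 and 0.50 ± 0.13 outside, a difference of -1.41 ± 0.27 (adjusted p = 0.00172). Irgm2, an immunity-related GTPase, was at -0.88 ± 0.29 under E2 and 0.57 ± 0.22 outside (-1.45 ± 0.35, adjusted p = 0.00641). Irf9 was at -0.40 ± 0.18 under E2 and 0.42 ± 0.11 outside (-0.82 ± 0.22, adjusted p = 0.0102). Irgm2 was chosen after its values were seen.

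Adipocyte markers lay lower in DOX under OIL, in part with overlap, and showed no such shift under P4. Of 21 adipocyte markers 20 were below 0 in the pooled fit, with a median of -0.85, and 2 had an unadjusted p under 0.05 and were lower (Pck1, -1.75 ± 0.72, and Lipe, -0.54 ± 0.23). Under OIL the median was -1.76 and 11 of 21 did not overlap and lay lower in DOX, beside 4.84% of all genes; under P4 the median was 0.16 and 0 did, beside 9.08%. At an unadjusted p under 0.05, 7 of 21 were lower under OIL, beside 555 of 15268 genes. The summed level of the list ranged from 598.2 to 1427 CPM in DOX OIL, against 1253 to 4876 CPM in PBS OIL, and from 278.6 to 792.1 CPM in DOX P4, against 330.2 to 758.3 CPM in PBS P4. These ranges overlapped under both hormones. PBS OIL replicate 2 held the 4876 CPM, beside 1253 and 2287 CPM in PBS OIL replicates 1 and 3. With the adipocyte score as a covariate the Ddit4 and Tmem45b calls under OIL ended (both adjusted p = 0.0717), and 27 antiviral effectors and 12 p53 targets were higher at an unadjusted p under 0.05. Smooth muscle markers were above 0 for 12 of 12 (median 0.31), B and plasma cell markers below 0 for 9 of 10 (median -0.46), and of 16 macrophage markers 9 were above 0 and 7 below (median 0.16). Summed smooth muscle markers ranged from 8179 to 18180 CPM in DOX OIL, against 8984 to 10870 CPM in PBS OIL, and from 18640 to 33000 CPM in DOX P4, against 17090 to 22510 CPM in PBS P4. Summed macrophage markers ranged from 479.7 to 1137 CPM in DOX OIL, against 532.2 to 3404 CPM in PBS OIL, and from 741.9 to 965.2 CPM in DOX P4, against 624.3 to 911.1 CPM in PBS P4. The summed levels of both lists overlapped between DOX and PBS under both hormones. Taken singly, 6 of 16 macrophage markers did not overlap and lay higher in DOX under P4, beside 1253 of 15268 genes. Under OIL 0 macrophage markers lay higher without overlap and 1 lay lower. Of 15 T and NK cell markers 1 was higher at an unadjusted p under 0.05. The part of these cell types in the other results was not tested beyond the adipocyte covariate.

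Genes of low GC content lay higher in DOX and genes of high GC content lower. In 8 bins of 1886 genes the median pooled log2 fold change was 0.112 in the bin of lowest GC (median 40.1%) and -0.081 in the highest (59.1%), and across 15088 genes Spearman's rho with GC content was -0.386. Each library's deviation from the mean of its hormone correlated with GC content at -0.181 to -0.123 in DOX OIL, against -0.228 to 0.349 in PBS OIL, and at -0.339 to -0.0623 in DOX P4, against 0.098 to 0.238 in PBS P4. The groups overlapped under OIL, where PBS OIL replicate 3 had the lowest value, and did not under P4. After a correction for GC content and length, 3.92% of all genes were higher and 4.33% lower at an unadjusted p under 0.05. The count of antiviral effectors then stood at 25 of 30, of interferon gamma-induced genes at 12 of 20, of sensors and factors at 7 of 17 and of p53 targets at 12 of 38, while mitochondrially encoded genes, 13 of 13 above 0 and 3 of 13 higher without the correction, had 0 higher with it.

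**Figure D5:**
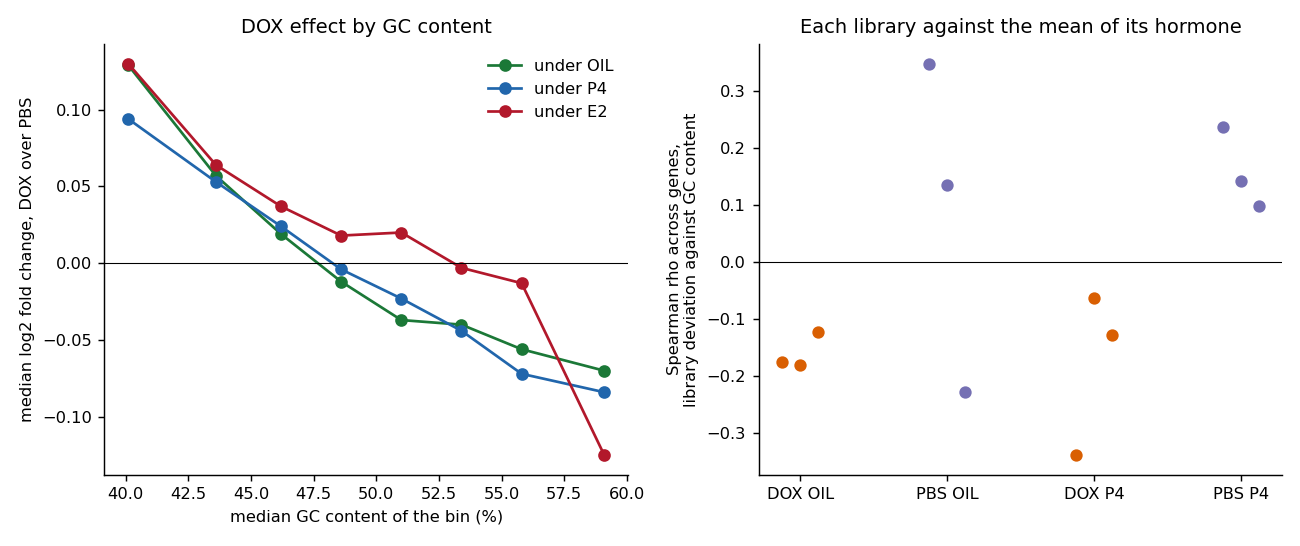
Left, median log2 fold change of DOX over PBS (y) in 8 bins of genes by GC content (x, %) under OIL, P4 and E2; right, Spearman's rho across genes between each library's deviation from its hormone's mean and GC content, with a point per library. In all 3 arms the median is highest in the bin of lowest GC content and lowest in the bin of highest, and the DOX libraries lie below 0, as does PBS OIL replicate 3.

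The 12 libraries held 18042357 to 26966264 counts, of which mitochondrially encoded genes took 3.38% to 4.79%. Cxcl10 rests on 105, 179 and 44 raw counts in DOX OIL, against 26, 22 and 15 in PBS OIL, and on 176, 75 and 107 in DOX P4, against 41, 35 and 33 in PBS P4, so counting error adds to its spread.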

How the data were processed

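Per the labels, total RNA was isolated from the uterus in Trizol, and the TruSeq total RNA chemistry was used for library construction. The authors deposited raw counts per gene symbol (22238 symbols, 2904 at 0 in all 18 libraries). The submitters' processing notes name the aligner HISAT2 2.1.0 and the build GRCm38, and also list StringTie 1.3.4d, Trimmomatic 0.36, SAMtools 1.6 and DESeq2 1.18.1. Neither labels nor notes state the counting step, the annotation or the strand setting, so reads of antisense partners cannot be told apart. Libraries of the same group were no copies of each other (chi-square per degree of freedom 15.7 to 67.5 over genes with at least 20 counts).

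The deposited counts were tested with edgeR 4.0.16 (filterByExpr, TMM, robust quasi-likelihood F-test, Benjamini-Hochberg over all tested genes, threshold 0.05). The pooled fit had hormone and DOX as terms over 12 libraries (9 residual degrees of freedom). Effects per hormone and their difference came from a 4-group model of the same libraries, and E2 contrasts from a 6-group model of all 18. CPM were scaled by TMM, and log2 CPM used a prior count of 2. Alternatives were DESeq2 1.42.0, limma 3.58.1 voom, other filters and scalings, a replicate block, an adipocyte covariate and leaving out each library; a correction for GC content and length in 20 bins (98.82% of genes covered) and a block within hormone were added after the data were seen. The fits were tested on simulated data.

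Members, the 36 gene lists (689 entries, 18 matched by an older symbol, 8 not in the table) and tests were chosen with earlier results of these data known. The text names called genes of average log2 CPM 1 or more and without a clone name (the 3 smallest p each way in a hormone or difference), up to 4 members with the smallest p per list, and Cdkn1a, Mdm2, Top2a, Top2b, Esr1, Pgr, Rfx2, Ddit4 and Cxcl10; list members beyond these, and genes so marked, were chosen after their values were seen. Positions of genes are from GENCODE M21 and promoters from RefSeq.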

Additional observations from a re-analysis of the deposited data

Results flagged for a closer look

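The DOX effect under E2 differed from the mean effect under OIL and P4 for the genes listed here, by the test of the difference itself (edgeR quasi-likelihood test, adjusted over 15494 genes). The difference, E2 minus the mean of OIL and P4 on the log2 scale, was 0.38 for Mdm2, 0.74 for Ccng1, 0.73 for Eda2r and 0.81 for Ddit4. For Ddit4 the pooled effect outside E2 was -0.79, so its difference is not by itself a rise in DOX under E2. It was -1.46 for Ephx1, -0.80 for Esr1, -2.05 for Rfx2, -0.82 for Irf9 and -1.41 for Gbp7. Over all tested genes the difference was called for 30.8%, so a call by itself does not set these genes apart.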

How the results depend on the processing

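Over OIL and P4 the count of called genes was 0 with voom, with other scalings and filters, with the adipocyte covariate, with the GC content and length correction and without each library in turn (0 to 0). It was 47 with DESeq2 and 1 in the fit of all 18 libraries (4930429B21Rik). Under OIL the 2 calls became 30 with DESeq2, 1 with voom, 0 with the adipocyte covariate and 0 to 5 without 1 library (5 without PBS OIL replicate 2, 1 without DOX OIL replicate 3, 0 without PBS OIL replicate 3, DOX OIL replicate 1 or DOX OIL replicate 2). Under P4 there were 13 calls with DESeq2 and 0 to 1 without 1 library (Gprc5b, without PBS P4 replicate 2). The difference of P4 and OIL had 11 with DESeq2, 1 in the fit of all 18 libraries (Rfx2) and 0 to 2 without 1 library (2 without DOX OIL replicate 3). Under E2 the calls fell to 3928 with the adipocyte covariate. The interferon gamma-induced genes higher at an unadjusted p under 0.05 numbered 8 to 14 without 1 library. Top2a was at 0.17 without PBS OIL replicate 1 and Pgr at 0.17 without PBS OIL replicate 3. Pgr turned to -0.01 with the adipocyte covariate and without PBS OIL replicate 2, and Top2a to -0.03 without DOX OIL replicate 1, -0.08 without DOX P4 replicate 2 and -0.04 with the GC content and length correction. The causes were not tested.

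Replicate numbers are shared by the groups, but deviations of same-numbered DOX and PBS libraries correlated at 0.279, 0.365 and 0.085 under OIL and 0.172, -0.028 and 0.16 under P4, so the numbers were not shown to pair samples. Under OIL every library correlated best with the library of its own number, and under P4 the libraries of replicate 2 did not. With a replicate block the counts were 0 over OIL and P4 and 1 under OIL. With the replicate block within hormone, chosen after seeing the data like the GC content and length correction, they were 6 over OIL and P4, 6 under OIL and 1 under P4. The p53 target Zmat3 was called in it over OIL and P4 (0.74, adjusted p = 0.0429) and under OIL (0.90, adjusted p = 0.0315), as was Rfx2 under OIL (0.96, adjusted p = 0.0407). With 3 libraries a group, the spread between libraries limits small differences.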
